A study of Homo sapiens with 12 samples.

Results

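The genes described here are those named for proteins of the mitochondrial ribosome, and were taken as the protein-coding genes of the raw count table whose GENCODE symbols begin with MRPL or MRPS followed by a number. The rule gave 78 of the 58288 genes in the table, 49 named for the large subunit and 29 for the small subunit, and left out 77 other genes with symbols of this form that are not protein-coding, mostly pseudogenes. The symbol is not proof of a place in the ribosome: the product of MRPS36, also known as KGD4, is a subunit of the 2-oxoglutarate dehydrogenase complex. Large and small subunit genes below, also in sums and ratios, are those so named by symbol. The products of MRPS30 and MRPS18A, counted here as small, are placed in the large subunit. RNA was sequenced from HK2 cells, an established human cell line from the proximal tubule of the kidney, in 4 groups of 3 libraries. Cells carried either a nontargeting short hairpin RNA (nontarget, labelled as control and wild type) or one directed against FLCN (FLCN knockdown), the tumor suppressor lost in Birt-Hogg-Dubé syndrome. Cells of each kind were harvested below 30 passages of growth (short-term) or above 120 passages (long-term), which gives a nontarget and a knockdown group at each time. All of the cells were grown in the same medium with 10% fetal bovine serum. The knockdown cells were stable clones, and since the labels do not say which or how many clones were sequenced, the effect of the hairpin and differences between clones cannot be told apart. The labels number the libraries of a group as biological replicates without saying that they are separate cultures, so p-values measure only the spread between these libraries.

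Mitochondria have their own ribosomes, which translate the few proteins encoded by mitochondrial DNA, all of them subunits of the respiratory chain and ATP synthase. The ribosomal RNAs are transcribed inside the organelle from MT-RNR1 (small subunit) and MT-RNR2 (large subunit), whereas every ribosomal protein is encoded in the nucleus, translated in the cytosol and imported. Some of these proteins descend from bacterial ribosomal proteins and others are particular to mitochondria, and a mitoribosome needs both subunits to be assembled around their RNA before translation can start. FLCN acts with FNIP1 and FNIP2 in nutrient signalling and is known as a negative regulator of PPARGC1A, a coactivator of genes of mitochondrial biogenesis.

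Libraries held 5825779 to 8991051 counts, and 0.421% to 0.517% of them fell on the 78 genes. FLCN was measured at 12.7, 16.7 and 16.5 CPM (counts scaled to a common library size with edgeR's TMM factors) in short-term nontarget and at 5.95, 6.58 and 5.66 CPM in short-term FLCN knockdown libraries. In long-term cells it was at 9.92, 11.9 and 12.2 CPM without and 6.70, 6.31 and 7.97 CPM with the knockdown. The groups did not overlap at either time, and FLCN fell by 1.33 on the log2 scale in short-term cells (SE 0.18, adjusted p = 0.000112) and by 0.70 in long-term cells (SE 0.18, adjusted p = 0.00611, both from the quasi-likelihood test of edgeR). Of 13 proximal tubule markers, 10 averaged below 1 CPM, and LRP2, SLC22A6, SLC22A8 and HNF4A had 0 counts in every library, whereas MME and GGT1 were expressed and were higher in knockdown cells short-term (0.48 and 0.51 on the log2 scale) and long-term (1.17 and 0.85). The short-term call of GGT1 (adjusted p = 0.0483) was lost in each of the 6 fits without 1 library, and that of MME in 1 of 6. Of 11 kidney epithelial markers, 9 were tested, with KRT8 and KRT18 the highest. In short-term knockdown against nontarget cells 1 of the 9 was higher and 1 lower (7 and 1 at an unadjusted p below 0.05), with a median of 0.33, and with culture time in nontarget cells 4 rose and 1 fell, with a median of 0.43. In long-term knockdown against nontarget cells 4 of the 9 were lower (KRT7 −1.46, PAX8 −0.61, EPCAM −0.59 and CDH2 −0.33 on the log2 scale), 1 was higher (CDH16, 1.44) and the median was −0.30. Between long-term and short-term knockdown cells 4 were lower (KRT7, KRT19, EPCAM and PAX8), 2 were higher and the median was −0.31. Without 1 library the long-term calls of EPCAM and CDH2 were lost in 4 and 2 of 6 fits, that of PAX8 between knockdown groups in 4 of 6, and both short-term calls, of PAX8 and CDH2, in all 6. The shares of all genes called in these comparisons are given with the members below. The part of these marker differences in the results below was not tested. All 5 leukocyte and all 5 endothelial markers were below 1 CPM. Of 6 fibroblast markers 4 were below 1 CPM, and the other two were COL1A1 and LUM, with LUM 3.69 higher on the log2 scale (SE 0.39, adjusted p = 1.9e-06) in long-term knockdown cells. The summed level of these 6 markers was 45.2 to 46.3 CPM in short-term nontarget, 51.1 to 53.1 in short-term knockdown, 17.3 to 22.5 in long-term nontarget and 27.0 to 35.6 in long-term knockdown libraries, and its part in the results below was not tested.

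The 78 genes lie on 21 chromosomes. Because several of them differed together, the bases upstream of their start sites are shown for 7 genes on which the comparisons turn: MRPL22, MRPL33, MRPL47, MRPS7 and MRPS18B, which were among the members most raised in long-term knockdown cells, MRPL36, which rose with culture time, and MRPL52, which fell with it in knockdown cells. Each line gives the 250 bases before the start site of the gene in RefSeq (build GRCh38.p14), 5′ to 3′ on the strand of the gene. Capitals mark matches, on either strand, to 1 of 5 motifs: TGCGCA for the core of the NRF1 site, which is found in promoters of genes for mitochondrial proteins, CCGGAAGT for the ETS factor GABPA, AAGATGGC for YY1, the E-box CACGTG, and TCACGTGA, the CLEAR element bound by TFEB and TFE3, which contains the E-box.
MRPL22: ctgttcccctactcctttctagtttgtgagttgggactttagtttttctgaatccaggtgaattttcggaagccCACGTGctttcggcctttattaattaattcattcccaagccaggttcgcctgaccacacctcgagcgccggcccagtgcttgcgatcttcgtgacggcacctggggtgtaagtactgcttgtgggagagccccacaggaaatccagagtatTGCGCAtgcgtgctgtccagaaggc
MRPL33: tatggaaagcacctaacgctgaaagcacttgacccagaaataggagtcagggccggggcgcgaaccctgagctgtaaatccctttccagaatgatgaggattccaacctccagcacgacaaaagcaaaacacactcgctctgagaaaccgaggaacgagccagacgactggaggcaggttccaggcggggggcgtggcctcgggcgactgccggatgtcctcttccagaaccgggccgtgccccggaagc
MRPL47: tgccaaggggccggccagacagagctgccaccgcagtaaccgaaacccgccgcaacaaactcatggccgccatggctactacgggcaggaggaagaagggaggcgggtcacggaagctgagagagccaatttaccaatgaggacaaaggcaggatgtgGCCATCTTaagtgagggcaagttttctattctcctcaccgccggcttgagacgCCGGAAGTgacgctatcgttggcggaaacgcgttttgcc
MRPS7: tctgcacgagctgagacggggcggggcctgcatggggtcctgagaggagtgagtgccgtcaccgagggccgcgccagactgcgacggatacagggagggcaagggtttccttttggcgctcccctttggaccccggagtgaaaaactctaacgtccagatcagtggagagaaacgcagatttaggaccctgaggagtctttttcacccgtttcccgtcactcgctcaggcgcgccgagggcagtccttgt
MRPS18B: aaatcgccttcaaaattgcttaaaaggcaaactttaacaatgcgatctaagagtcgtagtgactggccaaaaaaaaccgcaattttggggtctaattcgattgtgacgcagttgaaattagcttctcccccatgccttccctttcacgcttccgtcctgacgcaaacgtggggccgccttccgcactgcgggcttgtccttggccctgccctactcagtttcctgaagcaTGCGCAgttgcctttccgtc
MRPL36: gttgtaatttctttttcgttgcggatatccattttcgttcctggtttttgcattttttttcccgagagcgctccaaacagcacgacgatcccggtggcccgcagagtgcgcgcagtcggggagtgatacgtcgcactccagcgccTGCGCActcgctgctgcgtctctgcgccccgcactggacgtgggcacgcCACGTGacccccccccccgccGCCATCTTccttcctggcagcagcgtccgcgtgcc
MRPL52: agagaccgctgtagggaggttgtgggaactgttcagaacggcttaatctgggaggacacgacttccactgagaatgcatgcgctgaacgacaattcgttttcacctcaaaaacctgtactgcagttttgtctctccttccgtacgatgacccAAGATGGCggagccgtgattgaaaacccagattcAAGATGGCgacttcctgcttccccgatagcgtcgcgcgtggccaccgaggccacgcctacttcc
These windows are chr5:154940823-154941072 on the + strand for MRPL22, chr2:27771469-27771718 (+) for MRPL33, chr3:179604639-179604888 (−) for MRPL47, chr17:75261629-75261878 (+) for MRPS7, chr6:30617590-30617839 (+) for MRPS18B, chr5:1799838-1800087 (−) for MRPL36 and chr14:22829637-22829886 (+) for MRPL52. The E-box of MRPL22 begins 176 bases before the start and its NRF1 core 25 bases before it, and the NRF1 core of MRPS18B begins 20 bases before the start. MRPL36 holds matches to NRF1, YY1 and the E-box, MRPL47 to GABPA and YY1, and MRPL52 a pair of YY1 matches, 98 and 64 bases before the start. MRPL33 and MRPS7 hold none of the 5. Among the windows of other named members, which are not shown, MRPL32 holds matches to NRF1 and YY1. Those of MRPS30, MRPS5, MRPS16, MRPL58, MRPL24, MRPL14 and MRPL50 hold none. MRPL58 and MRPL24 rose by 0.69 and 0.66 on the log2 scale in long-term knockdown cells, more than MRPS7 (0.61) and MRPS18B (0.54).

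A window was found for 69 of the 78 genes and for 27305 genes in all. The GABPA motif was in 9 of the 69 (13.0%, against 3.64% of all windows), the NRF1 core in 13 (18.8%, against 7.05%), the YY1 motif in 5 (7.25%, against 1.37%), the E-box in 6 (8.70%, against 6.49%) and the CLEAR element in 2 (2.90%, against 0.89%). The core was put in place of a longer NRF1 site after the counts of the longer site had been seen. The longer site was in 8 of the 69 (11.6%, against 5.53% of all windows), 2 of them among the 20 and 6 among the 49 windows compared next. The windows of mitoribosomal genes had a median GC content of 60.8%, against 58.0% of all windows. Of the 20 windows of genes called higher in long-term knockdown cells 1 held the GABPA motif and 5 the NRF1 core, and of the 49 other windows 8 held the former and 8 the latter. The CLEAR element was in 0 of the 20 and in 2 of the 49. A match is a string of letters and was not tested as a binding site.

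Summed over the 78 genes, the level was highest in long-term FLCN knockdown cells. The sums were 4330, 4419 and 4173 CPM in short-term nontarget libraries, 4762, 4583 and 4337 CPM in short-term FLCN knockdown, 4461, 4522 and 4243 CPM in long-term nontarget and 5251, 5141 and 5258 CPM in long-term FLCN knockdown libraries. All 3 long-term knockdown libraries were above the other 9, whereas the short-term knockdown libraries overlapped both nontarget groups. Means were 4307 ± 125, 4561 ± 213, 4409 ± 147 and 5217 ± 65.6 CPM (SD, n = 3) in the same order. The large subunit genes summed to 3296 ± 62.3 CPM in long-term knockdown against 2750 ± 93.6 CPM in long-term nontarget libraries, and the small subunit genes to 1921 ± 12.6 against 1659 ± 54.6 CPM. The ratio of the large to the small subunit sum was 1.59 to 1.75 over the 12 libraries, and it was 1.75, 1.682 and 1.72 in long-term knockdown libraries against 1.675, 1.65 and 1.65 in long-term nontarget libraries. The ranges of these 2 groups did not overlap, but the lowest knockdown library was close to the highest nontarget library. These are sums over genes that were not tested as a score, and in bulk RNA a larger share of cells with a high level and more RNA per cell cannot be told apart.

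**Figure D1:**
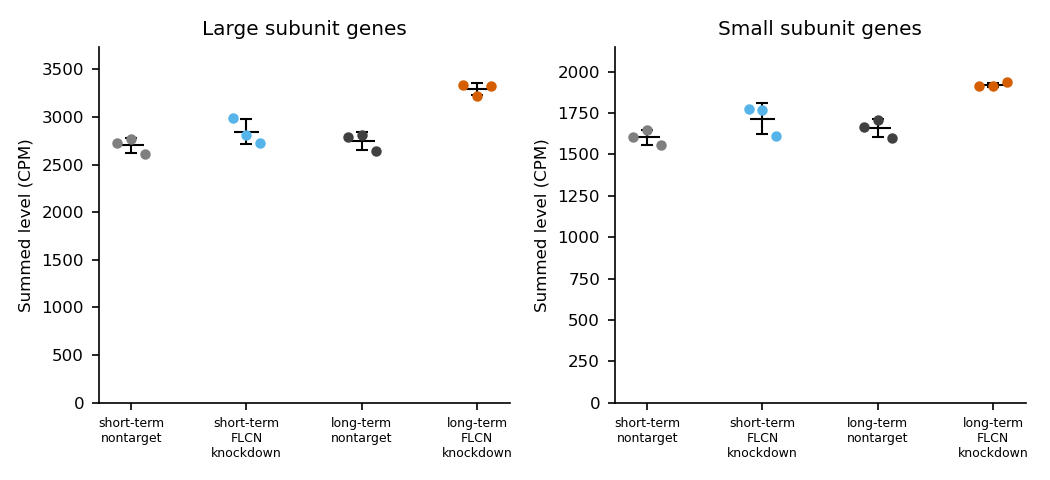
Summed level of the large subunit genes (left) and of the small subunit genes (right) in CPM, with 1 point for each library and bars for the mean ± SD of the 3 libraries of a group. The long-term FLCN knockdown libraries are the highest for both subunits, with means of 3296 and 1921 CPM.

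Levels differed widely between members. Per kilobase of the principal transcript, averaged over the 12 libraries, the median was 39.6 CPM for the large and 35.6 CPM for the small subunit genes. MRPL51 was the highest at 138 CPM per kilobase, followed by MRPL33 at 136, MRPL3 at 125, and MRPL37 and MRPS15, both at 100. MRPL33 ranked 13 and MRPS15 ranked 18 when the length of all exons was used in place of the principal transcript. The lowest were MRPL53 at 0.42, MRPL38 at 0.66, MRPS24 at 3.04, MRPS17 at 4.42 and MRPL42 at 5.07 CPM per kilobase. MRPL42 owes its rank to a transcript of 15582 bases, since it was at 79.0 CPM in all. MRPL53, MRPL38, MRPS24 and MRPS17 each overlap another gene on the same strand (CCDC142, AC087289.3, URGCP-MRPS24 and NIPSNAP2), and how reads shared between genes were counted is not given in the sources used here. MRPL53, at 0.48 CPM, was the member that did not pass edgeR's filter on low counts, so that 77 were tested.

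In short-term cells 5 members were higher in FLCN knockdown than in nontarget libraries at an adjusted p below 0.05 and 0 were lower (edgeR, Benjamini-Hochberg over 13959 genes). The members called higher were 6.49% of the 77, against 5.62% of all genes tested called higher and 4.71% called lower. At an unadjusted p below 0.05, 12 members were higher and 1 lower (background 12.3% and 10.8%), and DESeq2 called 5 higher and 0 lower. The median log2 fold change of the members was 0.07, and 51 were positive and 26 negative. The 2 groups of libraries did not overlap for 17 members that were higher, or 22.1% (background 15.2%), and for 4 that were lower, or 5.19% (background 15.0%).

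The 5 that rose were 3 genes named for the small subunit, MRPS30, MRPS5 and MRPS16, and 2 of the large subunit, MRPL22 and MRPL36. MRPS30 (chr5:44808925-44820428, + strand), whose product was later placed in the large subunit despite its symbol, was at 50.0, 57.1 and 60.3 CPM in short-term nontarget and 72.5, 75.7 and 77.7 CPM in short-term knockdown libraries. The groups were well apart, and the log2 fold change was 0.43 (SE 0.10, adjusted p = 0.0122). MRPS5 (chr2:95087207-95149434, − strand), the counterpart of a bacterial protein that lines the mRNA channel, was at 75.3, 72.4 and 61.4 CPM without and 98.4, 113 and 83.2 CPM with the knockdown. Its knockdown libraries spread more widely than its nontarget libraries but stayed above them, with a log2 fold change of 0.49 (SE 0.12, adjusted p = 0.0149). MRPS16 (chr10:73248843-73252693, − strand), a gene mutated in a fatal infantile disorder of mitochondrial translation, was at 116, 125 and 123 CPM without and 164, 152 and 147 CPM with the knockdown. Its log2 fold change was 0.35 (SE 0.09, adjusted p = 0.0166). MRPS5 shares 550 exonic bases with ZNF514 and MRPS16 shares 415 with DNAJC9 or DNAJC9-AS1.

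MRPL22 and MRPL36 passed with less margin. MRPL22 was at 33.2, 29.6 and 34.7 CPM in short-term nontarget and 49.5, 49.9 and 34.5 CPM in short-term knockdown libraries. The last knockdown library lay within the nontarget range, and the log2 fold change was 0.46 (SE 0.14, adjusted p = 0.0384). MRPL36, a very small protein with a bacterial counterpart, was at 26.0, 31.0 and 26.4 CPM without and 36.7, 36.6 and 35.6 CPM with the knockdown, a log2 fold change of 0.39 (SE 0.11, adjusted p = 0.0398). Among the 40 tested genes nearest to MRPL36 the median was 0.50, larger than that of MRPL36 itself, and those nearest to the other 4 had medians of 0.14 to 0.26. No cause of these regional values was tested. Each of the 5 lost its call when some library was left out. MRPS30 had an adjusted p of 0.0892 without short-term nontarget replicate 1. MRPS5 had 0.0878 without knockdown replicate 2 and 0.0848 without nontarget replicate 3. MRPS16 had 0.0929 without nontarget replicate 1 and 0.0877 without knockdown replicate 1. MRPL22 kept its call only without knockdown replicate 3, and MRPL36 only without nontarget replicate 2. The count of members called higher was 1 without nontarget replicate 1 and 2 without nontarget replicate 3, knockdown replicate 1 or knockdown replicate 2.

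In long-term cells 23 members were higher in FLCN knockdown than in nontarget libraries and 0 were lower. The 23 were 29.9% of the 77 tested, against 13.7% of all genes tested called higher and 15.8% called lower. At an unadjusted p below 0.05, 36 members were higher and 0 lower (background 18.5% and 20.5%), and DESeq2 called 24 higher and 0 lower. Same-numbered libraries of these groups deviated together, and with the replicate number as a block 31 members were higher, among them all 23, and 1 was lower, MRPL15 (log2 fold change −0.23, SE 0.09, adjusted p = 0.0491), while the background also grew, to 17.4% higher and 19.4% lower. The groups did not overlap for 36 members, all higher, or 46.8% (background 19.0% higher and 20.7% lower). The median log2 fold change of the members was 0.23 while that of all genes was 0.00, and 65 members were positive and 12 negative. The largest fold change was 2.26, of MRPL22, and 0 members passed the limit of 2.5-fold that the study set for the knockdown comparisons, which 6.61% of all genes passed. By symbol, the 23 were 16 of 48 large subunit genes tested (median of the 48, 0.24) and 7 of 29 small subunit genes (median of the 29, 0.22). The 7 include MRPS30 and MRPS18A, whose products are placed in the large subunit. For 20 members the 3 long-term knockdown libraries were above all 9 other libraries. The share of all genes tested for which this holds was not counted, so the 20 cannot be set against a background.

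**Figure D2:**
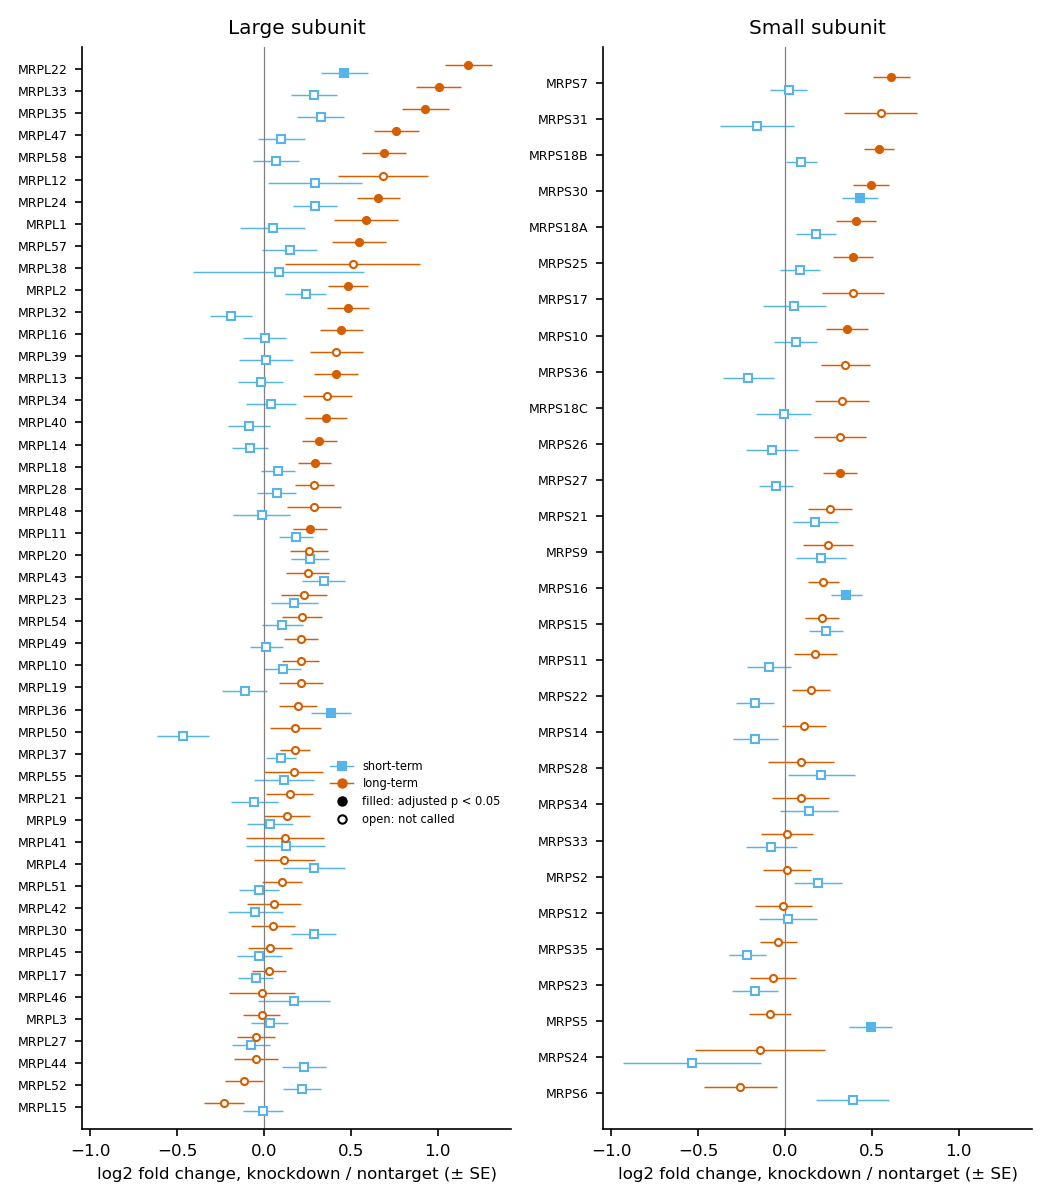
Log2 fold change (± SE) of each of the 77 tested members between FLCN knockdown and nontarget libraries in short-term (blue squares) and long-term cells (orange circles), for large subunit genes (left) and small subunit genes (right), each ordered by the long-term value. Filled symbols passed the test, which 5 members did in short-term and 23 in long-term cells.

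MRPL22, MRPL33 and MRPL35 had the lowest p-values of the large subunit. MRPL22 (chr5:154941070-154969411, + strand, overlapping no other gene) is the counterpart of a bacterial protein at the exit tunnel. It was at 30.8, 30.5 and 26.3 CPM in long-term nontarget and 65.6, 67.4 and 64.6 CPM in long-term knockdown libraries. The knockdown level was more than that of any other library, and the log2 fold change was 1.17 (SE 0.14, adjusted p = 3.96e-06). MRPL33 (chr2:27771717-27988087, + strand), a short protein with a bacterial counterpart, was at 58.0, 53.0 and 48.9 CPM without and 125, 109 and 85.8 CPM with the knockdown. The knockdown libraries were spread over a wide range that lay above all others, and the log2 fold change was 1.01 (SE 0.13, adjusted p = 1.31e-05). Exons of MRPL33 share 324 bases with other genes, among AC021171.2, BABAM2 and RBKS. MRPL35 (chr2:86199355-86213794, + strand, overlapping no other gene) was at 33.8, 29.4 and 24.5 CPM without and 61.1, 56.8 and 48.5 CPM with the knockdown. The gap between the groups was wider than the range of either, and the log2 fold change was 0.93 (SE 0.13, adjusted p = 4.33e-05).

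The next large subunit genes were MRPL47, MRPL58, MRPL24 and MRPL2. MRPL47 (chr3:179588285-179604654, − strand), the counterpart of another bacterial protein near the exit tunnel, was at 76.4, 84.6 and 60.9 CPM in long-term nontarget and 133, 128 and 115 CPM in long-term knockdown libraries. Its log2 fold change was 0.76 (SE 0.13, adjusted p = 0.000265). MRPL58 (chr17:75012670-75021261, + strand) encodes a peptidyl-tRNA hydrolase that is built into the large subunit and can release stalled chains. It was at 29.3, 33.9 and 28.2 CPM without and 49.7, 45.8 and 52.1 CPM with the knockdown, a log2 fold change of 0.69 (SE 0.13, adjusted p = 0.000473). MRPL24 (chr1:156737303-156741590, − strand) was at 28.9, 26.5 and 26.0 CPM without and 43.9, 40.4 and 44.3 CPM with the knockdown, a log2 fold change of 0.66 (SE 0.13, adjusted p = 0.000669). MRPL2 (chr6:43054029-43059806, − strand) is the counterpart of a bacterial protein close to the peptidyl transferase center. Its level was 40.7, 43.4 and 48.1 CPM without and 56.9, 57.1 and 71.2 CPM with the knockdown, a log2 fold change of 0.48 (SE 0.12, adjusted p = 0.00427). None of these 4 had overlapping groups, and MRPL47 and MRPL2 share 124 and 373 exonic bases with ACTL6A and KLC4 on the other strand.

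Among the genes named for the small subunit MRPS18B, MRPS7 and MRPS30 had the lowest p-values. MRPS7 (chr17:75261674-75266373, + strand), a protein of the head of the subunit, was at 74.1, 91.2 and 74.8 CPM in long-term nontarget and 123, 131 and 112 CPM in long-term knockdown libraries. The log2 fold change was 0.61 (SE 0.11, adjusted p = 0.000255). MRPS30 was at 73.4, 65.2 and 65.6 CPM without and 92.1, 92.6 and 104 CPM with the knockdown, a log2 fold change of 0.50 (SE 0.10, adjusted p = 0.00132). MRPL22 and MRPS30 were the 2 members called higher in both the short-term and the long-term comparison, which share no library. MRPS18B is 1 of 3 mitochondrial genes related to the single S18 protein of bacteria. It was at 83.5, 83.0 and 84.0 CPM without and 120, 124 and 121 CPM with the knockdown (chr6:30617709-30626395, + strand). The libraries of each group were within a few CPM of each other, and the log2 fold change was 0.54 (SE 0.09, adjusted p = 0.000134). Its relative MRPS18A, another protein placed in the large subunit, was at 32.8, 30.8 and 34.4 CPM without and 40.9, 45.6 and 43.9 CPM with the knockdown and rose by 0.41 (SE 0.11, adjusted p = 0.0107). MRPS18C, the third of them, was at 19.2, 18.1 and 19.3 CPM without and 23.6, 27.1 and 20.4 CPM with the knockdown and did not pass (log2 fold change 0.33, SE 0.16, adjusted p = 0.125). MRPS7 shares 359 exonic bases with GGA3 or MIF4GD and MRPS18A shares 604 with RSPH9, all on the other strand.

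**Figure D3:**
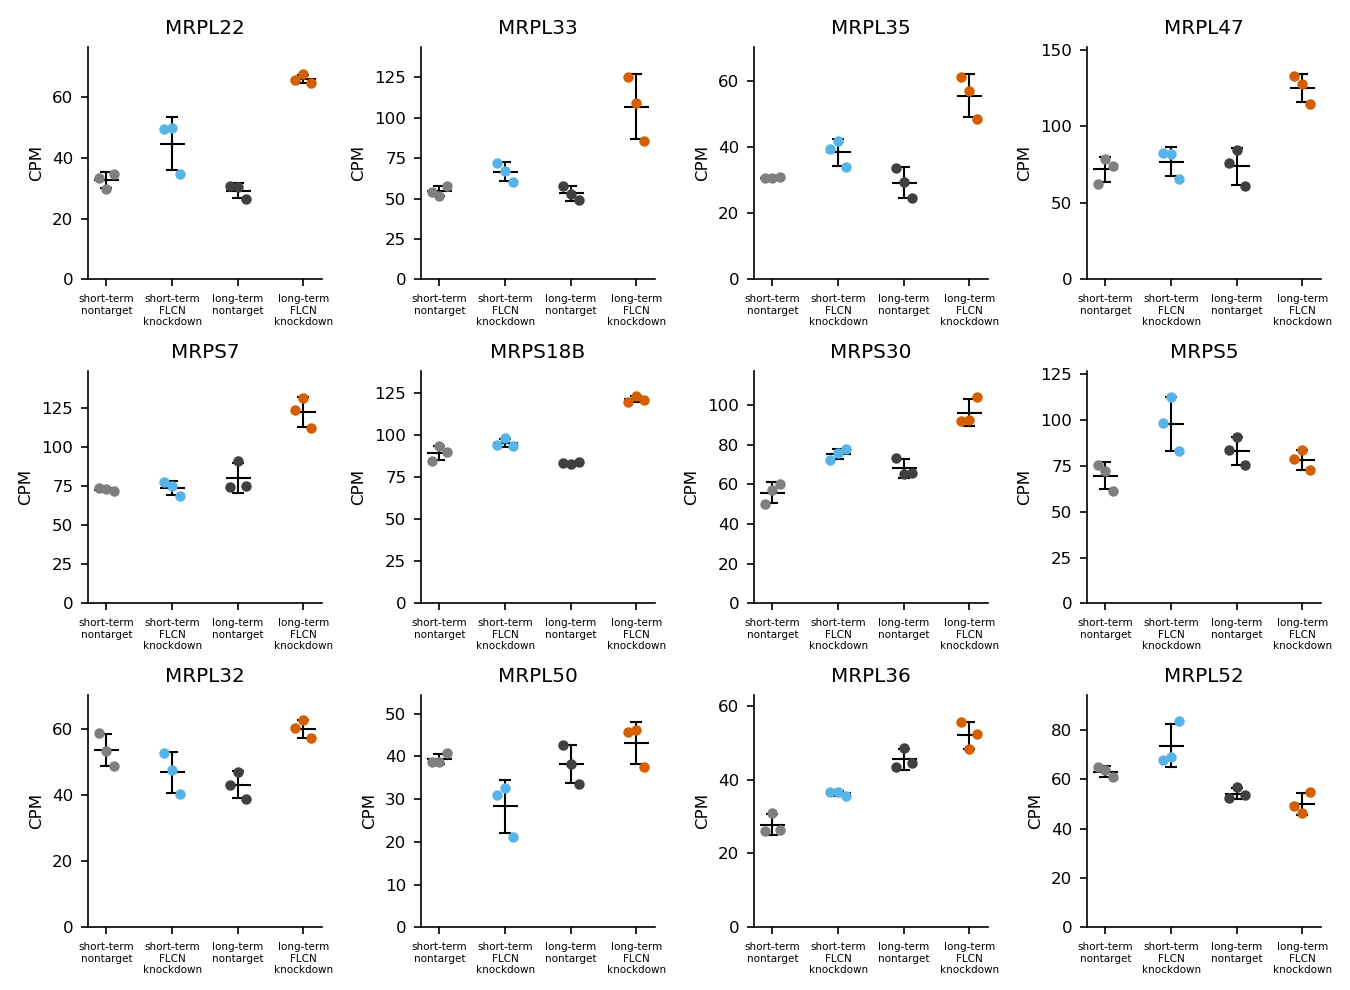
Level in CPM of 12 members in each library, with 1 panel for each gene, 1 point for each library and bars for the mean ± SD of the 3 libraries of a group. MRPL22, MRPL33, MRPL35, MRPL47, MRPS7 and MRPS18B are highest in the long-term FLCN knockdown libraries, MRPL36 is higher in both long-term groups, and MRPL52 is lower in long-term than in short-term FLCN knockdown libraries.

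The other 12 that rose in long-term knockdown cells were MRPL1, MRPL11, MRPL13, MRPL14, MRPL16, MRPL18, MRPL32, MRPL40, MRPL57, MRPS10, MRPS25 and MRPS27, with log2 fold changes from 0.26 for MRPL11 to 0.59 for MRPL1. All 6 members on chromosome 6 (MRPL2, MRPL14, MRPL18, MRPS10, MRPS18A and MRPS18B) were among the 23, while over the 704 tested genes of that chromosome the median was −0.01. This chromosome was singled out after its values were seen. Of 8 members each on chromosomes 1 and 17, 1 and 2 were called. When each of the 6 libraries was left out in turn, 16 to 21 members were called higher and 0 lower. The count was 16 without knockdown replicate 1 or without nontarget replicate 3. In every such fit 11 of the 23 passed: the 10 with the lowest p-values and MRPL32. MRPL11 passed in none of the 6.

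Precision differed with level. The SE of a member's long-term log2 fold change was 0.087 to 0.39, with a median of 0.13, and the biological coefficient of variation was 11.99%. Of the 26 members with the fewest counts, averaging 8.5 to 277 per library, 7 were called, with a median log2 fold change of 0.34 and a median SE of 0.15. Of the middle 26 members 6 were called, with a median of 0.20 and a median SE of 0.13. Of the 25 with the most counts, averaging 511 to 1494, 10 were called, with a median of 0.22 and a median SE of 0.11. The error was wider still for some members, a pair of which are named after their values were seen. MRPL12, a protein that also binds the mitochondrial RNA polymerase, had a long-term log2 fold change of 0.68 (SE 0.26) and MRPS31 one of 0.55 (SE 0.21), and neither passed. With the replicate block both were called higher, MRPL12 at 0.66 (SE 0.20, adjusted p = 0.0115) and MRPS31 at 0.55 (SE 0.15, adjusted p = 0.00584).

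Several of the raised members lie where neighboring genes were also raised. For 11 of the 77 members the median long-term log2 fold change of the 40 nearest tested genes was above 0.3, a limit set after these medians were seen, and 6 of these were called: MRPL32, MRPL33, MRPL35, MRPL47, MRPL58 and MRPS7, with neighbors' medians from 0.38 to 0.57. The 17 other called members, among them MRPL22, MRPS18B, MRPL24, MRPS30 and MRPL2, had neighbors' medians from −0.17 to 0.11. The median log2 fold change was 0.61 over the 11 and 0.21 over the other 66, of which 55 were positive. In all, 67 of 77 members were above the median of their neighbors, by a median of 0.23, against 43 of 77 and 0.03 in short-term cells. The part of such regional differences in the level of each member was not tested.

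**Figure D4:**
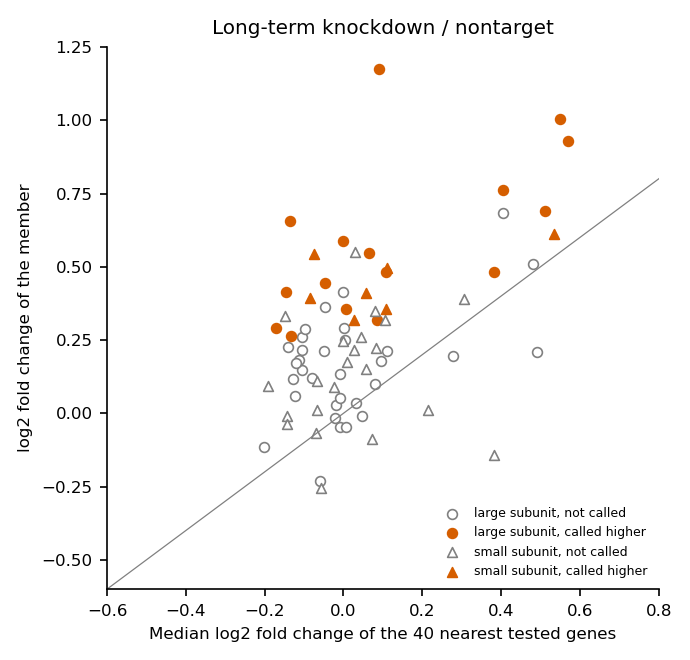
Long-term log2 fold change of each of the 77 members (vertical axis) against the median log2 fold change of its 40 nearest tested genes (horizontal axis), with circles for large and triangles for small subunit genes and filled symbols for the 23 called higher. On the grey line both values are equal, and 67 of 77 members lie above it, with 6 filled symbols at a neighbors' median above 0.3.

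Reads of overlapping genes cannot be told apart by strand, since the library kit does not mark it. Of 40 tested members whose exons overlap another gene 10 were called, and of 37 without such an overlap 13 were. Of 29 members that overlap no other gene on either strand 9 were called higher in long-term knockdown cells. Pseudogenes named after a member were found for 34 of the 78 genes, 75 in all, and reads that fit both a gene and its pseudogene make the counts of these genes uncertain.

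In nontarget cells little differed between long-term and short-term libraries. MRPL36 was higher, 0 members were lower, and the 1 called is 1.30% of 77 (background 3.17% higher and 4.38% lower). At an unadjusted p below 0.05, 3 members were higher and 2 lower (background 8.89% and 10.5%), and DESeq2 called 1 higher and 0 lower. The median log2 fold change was 0.01, with 41 positive and 36 negative, and the groups did not overlap for 10 higher and 6 lower members (background 12.1% and 13.6%). MRPL36 (chr5:1798386-1801366, − strand) was at 43.4, 48.6 and 44.4 CPM in long-term nontarget libraries, all above the 26.0 to 31.0 CPM of the short-term ones, and the log2 fold change was 0.71 (SE 0.11, adjusted p = 0.000594). It passed without each library in turn, and its 40 nearest genes had a median of 0.53.

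In FLCN knockdown cells 20 members were higher in long-term than in short-term libraries and 1 was lower, or 26.0% and 1.30% of 77 (background 11.5% higher and 15.2% lower). The median log2 fold change was 0.26, against 0.01 for all genes, and 65 members were positive. This comparison shares its long-term knockdown libraries with the comparison of knockdown and nontarget in long-term cells, and its short-term knockdown libraries with the short-term comparison. Same-numbered libraries deviated together here too, and with the replicate block 29 members were higher, among them all 20, and 2 were lower, MRPL52 and MRPS5 (−0.32, SE 0.09, adjusted p = 0.00815), against a background of 15.8% higher and 18.6% lower. The groups did not overlap for 27 higher and 2 lower members (background 18.3% and 19.8%). The lowest p-values were those of MRPS7, at 77.3, 74.9 and 68.8 CPM in short-term knockdown libraries (log2 fold change 0.73, SE 0.11, adjusted p = 5.84e-05), and MRPL58, at 28.7, 33.6 and 24.8 CPM (0.76, SE 0.13, adjusted p = 0.000272). MRPL47 (0.70), MRPL33 (0.68), MRPL22 (0.56), MRPL35 (0.53) and MRPS18B (0.35) were also higher on the log2 scale. MRPL36 was 0.52 higher (SE 0.11, adjusted p = 0.002), at 55.5, 48.1 and 52.2 CPM against 36.7, 36.6 and 35.6. MRPL14, on chromosome 6, was at 101, 103 and 120 CPM against 86.9, 74.9 and 75.9 (log2 fold change 0.44, SE 0.10, adjusted p = 0.00351).

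MRPL50 and MRPL52 are particular to mitochondrial ribosomes and differed from the members named so far. MRPL50 (chr9:101387633-101398614, − strand) was at 31.0, 32.6 and 21.2 CPM in short-term and 45.8, 46.2 and 37.5 CPM in long-term knockdown libraries, a log2 fold change of 0.60 (SE 0.15, adjusted p = 0.00596). In nontarget libraries it was at 38.7, 38.7 and 40.7 CPM short-term and 42.6, 38.3 and 33.6 CPM long-term, so that the short-term knockdown libraries were the lowest of the 4 groups. MRPL52 (chr14:22829879-22835037, + strand) was the member that fell, from 67.9, 69.2 and 83.7 CPM in short-term to 49.1, 46.2 and 54.8 CPM in long-term knockdown libraries. It fell by 0.56 on the log2 scale (SE 0.11, adjusted p = 0.00106) and its 40 nearest genes had a median of −0.53. The 11 members named above as called without the block passed when each library was left out in turn, while the count of members called higher was 14 to 20. It was 14 without long-term knockdown replicate 1, long-term knockdown replicate 2 or short-term knockdown replicate 2, and 13 when the model held the 2 groups compared in place of all 4.

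**Figure D5:**
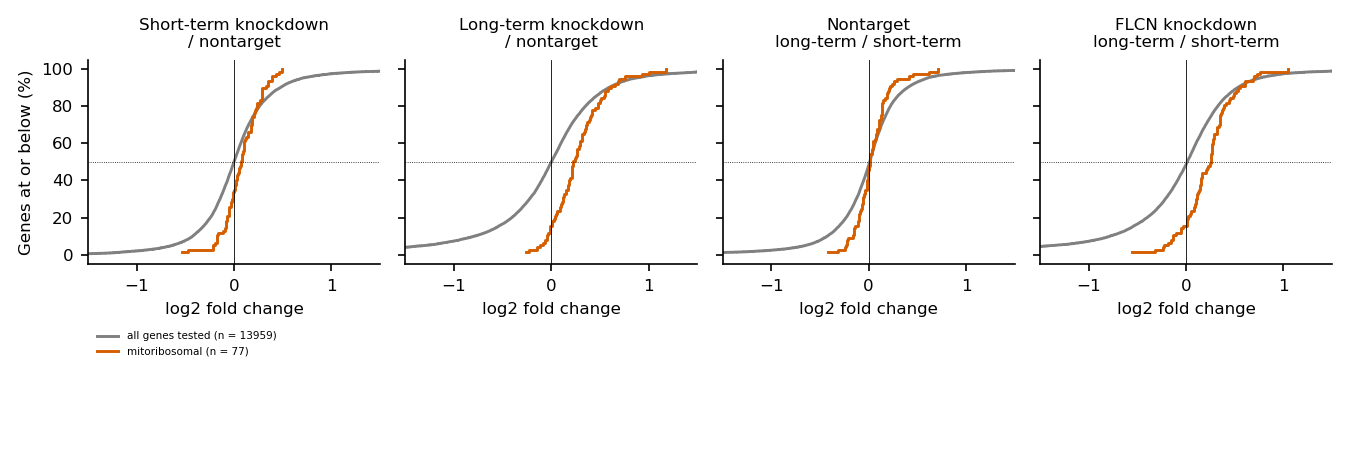
Cumulative distribution of log2 fold changes of the 77 members (orange) and of all 13959 genes tested (grey) in 4 comparisons, with the share of genes at or below each value in percent. The orange curve lies to the right of the grey one at the 50% line in long-term knockdown against nontarget (medians 0.23 and 0.00) and in long-term against short-term knockdown cells (0.26 and 0.01), and close to it in nontarget cells (0.01 and 0.01).

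Whether the effect of the knockdown differed between long-term and short-term cells was tested as an interaction. For 9 members, or 11.7%, the long-term effect was higher and for 1 it was lower (background 4.98% higher and 8.43% lower), and the median difference was 0.20 on the log2 scale, with 58 members positive. The 9 were MRPL33 (0.72), MRPL22 (0.71), MRPL32 (0.67), MRPL47 (0.66), MRPL50 (0.65), MRPL58 (0.62), MRPL35 (0.60), MRPS7 (0.59) and MRPS18B (0.45). MRPL32, whose product is trimmed by a mitochondrial protease on its way into the ribosome, was at 58.9, 53.5 and 49.0 CPM in short-term nontarget and 52.9, 47.7 and 40.3 CPM in short-term knockdown libraries, which overlap. In long-term cells it was at 43.3, 47.2 and 39.1 CPM without and 60.3, 62.8 and 57.5 CPM with the knockdown, which do not. MRPS5 was the member with a lower long-term effect (−0.58, SE 0.17, adjusted p = 0.0341), at 83.8, 90.9 and 75.6 CPM in long-term nontarget and 78.8, 83.8 and 72.8 CPM in long-term knockdown libraries. With the replicate block the long-term effect was higher for 15 members and lower for 2 (background 8.58% and 12.04%), and no call was lost. The 2 were MRPS5 and MRPS6 (−0.63, SE 0.17, adjusted p = 0.0110). MRPL32 and MRPS7 passed in all 12 fits without 1 library. The count of members with a higher long-term effect was 4 without long-term knockdown replicate 1 or short-term nontarget replicate 2, and 5 without long-term knockdown replicate 2, long-term nontarget replicate 3 or short-term nontarget replicate 3. MRPS5 passed in 4 of the 12 fits, with an adjusted p of 0.0968 without short-term knockdown replicate 2. MRPL35 and MRPL50 passed in fewer of them.

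Across the 77 members the short-term and long-term log2 fold changes, which come from separate libraries, had a Pearson's r of 0.24 and a Spearman's rho of 0.15, and over all genes tested the r was 0.27. The signs were the same for 49 of them (63.6%), against 58.2% of all genes. The members share libraries and chromosomes and are not independent.

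For comparison, 2 other groups of ribosomal or mitochondrial proteins were measured. Of all genes tested, 5.62% were called higher and 4.71% lower short-term, and 13.7% and 15.8% long-term. These shares are also the background of the gene lists below. Of 79 cytosolic ribosomal proteins, 6 (7.59%) were higher in short-term and 49 (62.0%) in long-term knockdown cells. None was lower in either, and the long-term median was 0.37. Of 73 tested nuclear-encoded subunits of the respiratory chain and ATP synthase, 8 and 36 were higher and 0 lower, with a long-term median of 0.32. In both groups 0 genes were lower at an unadjusted p below 0.05. Whether the mitoribosomal genes differ from these groups was not tested. The cytosolic ribosomal proteins summed to 50813 to 54122 CPM in long-term nontarget and 66594 to 74787 CPM in long-term knockdown libraries. Short-term, they summed to 52081 to 54857 CPM in nontarget and 56305 to 66429 CPM in knockdown libraries. These short-term knockdown sums were above both nontarget groups, whereas the mitoribosomal sums overlapped both. How the cytosolic and mitoribosomal sums vary together was not tested.

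Of the ribosomal RNAs that the proteins bind, MT-RNR2 was higher in knockdown cells at both times and MT-RNR1 in long-term cells. MT-RNR2 was at 3359, 3258 and 3364 CPM in short-term nontarget and 7517, 6618 and 7796 CPM in short-term knockdown libraries, and at 1784, 1549 and 1435 CPM in long-term nontarget and 8966, 6218 and 5151 CPM in long-term knockdown libraries. It rose by 1.14 short-term (SE 0.15, adjusted p = 0.000137) and 2.09 long-term (SE 0.16, adjusted p = 4.36e-08) and fell by 1.07 from short-term to long-term nontarget cells (SE 0.15, adjusted p = 0.000287). MT-RNR1 was at 503, 461 and 498 CPM without and 605, 545 and 804 CPM with the knockdown in short-term cells, which did not pass (0.42, SE 0.15, adjusted p = 0.101). In long-term cells it rose by 1.14 (SE 0.15, adjusted p = 3.06e-05), from 309, 252 and 262 CPM to 760, 536 and 516 CPM. Of the 15 mitochondrially encoded RNAs, 1 (6.67%) was higher short-term (MT-RNR2) and 0 lower, while 10 had a negative log2 fold change and the median was −0.11. Long-term, 11 (73.3%) were higher and 0 lower, among them MT-ND5 (0.78, SE 0.13, adjusted p = 0.000246). From short-term to long-term nontarget cells 10 of the 15 were lower and 0 higher (background 4.38% lower and 3.17% higher), with a median log2 fold change of −0.61. From short-term to long-term knockdown cells 1 was higher and 2 were lower (background 11.5% higher and 15.2% lower), with a median of −0.02. Libraries were made from polyadenylated RNA, and how well mitochondrial ribosomal RNA is retained by that selection can differ between libraries and was not measured.

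Of 5 mitoribosomal proteins with other symbols, PTCD3, a small subunit protein that binds RNA, rose by 0.54 short-term (adjusted p = 0.00498) and 0.85 long-term (adjusted p = 2.13e-05), and DAP3, a GTP-binding protein of the same subunit, rose by 0.45 long-term (adjusted p = 0.00429). Of 26 genes for mitoribosome assembly and rRNA maturation, 0 passed short-term in edgeR (2 higher and 0 lower at an unadjusted p below 0.05). Long-term, 6 (23.1%) were higher and 0 lower, among them MRM3 (0.81) and TRMT61B (0.81), which methylate mitochondrial rRNA, and GTPBP10 (0.52), a GTPase of large subunit assembly. Of the other 3, NOA1 (adjusted p = 0.0490) was lost in all 6 fits without 1 library, with RLE factors, at a mean of at least 10 CPM and in DESeq2. MRM2 (adjusted p = 0.0411) was lost in 5 of 6, without the filter, in DESeq2 and with only the groups compared, and TFB1M was lost in 2 of 6. Of 16 translation factors and mRNA partners, 2 were higher and 1 lower short-term (12.5% and 6.25%), and 5 were higher and 1 lower long-term (31.25% and 6.25%). LRPPRC, which stabilizes mitochondrial mRNAs, rose by 0.47 and 0.76, and MTIF2, the initiation factor, by 0.55 and 0.88. GFM1, the elongation factor, rose by 0.51 long-term, whereas GFM2, which splits the subunits after translation, fell by 0.51 short-term and by 0.33 long-term. The long-term call of GFM2 (adjusted p = 0.0458) was lost in 4 of 6 fits without 1 library, without the filter on low counts, in DESeq2 and with only the groups compared, and its short-term call in 2 of 6. The short-term calls of LRPPRC and MTIF2 were lost in 3 and 4 of 6.

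Of 20 aminoacyl-tRNA synthetases and related enzymes 0 passed short-term in either direction (0 also at an unadjusted p below 0.05). Long-term, RARS2 (0.52) and GATB (0.39, lost in 3 of 6 fits without 1 library) were higher and CARS2, the cysteinyl-tRNA synthetase, fell by 1.04 (SE 0.14, adjusted p = 1.6e-05). Of 15 regulators of mitochondrial transcription and biogenesis, 1 was higher short-term (6.67%, against 5.62% of all genes) and 4 long-term (26.7%), with 0 lower. PPARGC1A was at 23.6, 21.1 and 32.4 CPM in short-term nontarget and 42.9, 44.5 and 39.99 CPM in short-term knockdown libraries, and at 26.0, 20.8 and 18.2 CPM and 56.4, 70.4 and 52.4 CPM in the long-term groups. Its knockdown libraries were above the nontarget libraries at both times, with log2 fold changes of 0.73 (SE 0.17, adjusted p = 0.00852, lost in 2 of 6 fits without 1 library) and 1.46 (SE 0.17, adjusted p = 3.33e-06). TFB2M (0.47) and MTERF1 (0.60), which act in initiation and termination of mitochondrial transcription, rose long-term. The call of TEFM (adjusted p = 0.0402), the other regulator higher long-term, was lost in 4 of 6 fits without 1 library, in DESeq2 and with only the groups compared. MYC, a transcription factor known to drive ribosome genes, had log2 fold changes of −0.08 (SE 0.10, adjusted p = 0.726) short-term and 0.12 (SE 0.10, adjusted p = 0.399) long-term and did not pass.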

How the data were processed

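Polyadenylated RNA of 12 HK2 libraries was sequenced by the authors, who mapped reads to GRCh38 with STAR and obtained a count per gene with featureCounts (submitters' processing notes, versions not given). The strand setting and the treatment of reads shared between genes are not given in the sources used here. The deposited raw count table and the per-library count files differed in 0 values. The deposited normalized columns (unit score) equal the count divided by 1 factor per library (100% of values within 1) and were not used further. No column lacked a sample (0). Total counts and their limits are given above, and intervals cover the spread between libraries.

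Counts were tested in R 4.3.3 with edgeR 4.0.16 (filterByExpr, TMM, robust quasi-likelihood fit, 1 model with 4 group terms over the 12 libraries), which kept 13959 genes with 99.8% of the counts. Two-sided p-values were adjusted over all genes tested (Benjamini-Hochberg), with calls at an adjusted p below 0.05. The SE is the log2 fold change over the square root of F. Symbols, overlaps and coordinates came from GENCODE release 29 on GRCh38, and 77 of the 78 members matched with the same ID version. Lengths are those of the principal transcript. After removal of group means, same-numbered libraries correlated at 0.171 to 0.582 between the long-term groups and at 0.336 to 0.572 between the knockdown groups (3 of 3 pairs above 0.1 in each), and at −0.0033 to 0.153 between the short-term and −0.0697 to 0.127 between the nontarget groups. The pairing comes from these values, and the labels give only a replicate number. Replicates differed by more than counting error (chi-square per degree of freedom 2.13 to 12.6). Scripts were tested on simulated data.

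Members, gene lists and tests were chosen with earlier results of these data known. In each comparison the text names up to 10 members called in each direction by p-value, the 5 highest and 5 lowest by level, the MRPS18 paralogs, up to 3 called genes in each direction per list, and MT-RNR1, MT-RNR2, MYC and PPARGC1A. Alternatives were RLE factors, DESeq2 1.42.0, no filter, a mean of at least 10 CPM, only the groups compared, a replicate block, members that overlap no other gene, and leaving out each library. The per-library files as input to the fit were added after seeing the data. Dispersions were first estimated with the robust option of estimateDisp and log2 fold changes with a larger prior count. Both were set to the edgeR defaults after the counts of calls over all genes had been seen and set against those of an earlier analysis, and the robust option is kept as an added alternative, which changed no count of calls. The prior count bears on log2 fold changes and on calls with a fold limit, not on p-values.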

Additional observations from a re-analysis of the deposited data

Results flagged for a closer look

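The effect of FLCN knockdown differed between long-term and short-term cells for 10 members, by the interaction term of edgeR's model over all 12 libraries with adjustment over all genes. The difference (long-term minus short-term log2 fold change) was 0.67 for MRPL32 (SE 0.17, adjusted p = 0.0125). Its short-term value was −0.19 (adjusted p = 0.377) and did not pass. It was 0.72 for MRPL33 (adjusted p = 0.0133), 0.71 for MRPL22 (adjusted p = 0.0182) and 0.59 for MRPS7 (adjusted p = 0.0126). It was 0.45 for MRPS18B (adjusted p = 0.0213), 0.66 for MRPL47 (adjusted p = 0.0245) and 0.62 for MRPL58 (adjusted p = 0.0307). MRPL35 had a difference of 0.60 (adjusted p = 0.0437) and MRPL50 one of 0.65 (adjusted p = 0.0496). MRPS5 had a lower effect long-term than short-term, with a difference of −0.58 (adjusted p = 0.0341). MRPL32 and MRPS7 passed in each of the 12 fits without 1 library. MRPL22 had an adjusted p of 0.0510 without short-term nontarget replicate 3, MRPL33 had 0.0520 without long-term knockdown replicate 1, and MRPS18B had 0.0677 without short-term nontarget replicate 2 and 0.0572 without long-term knockdown replicate 2. MRPL47 passed in 7 of the 12 fits, MRPL58 in 5, MRPS5 in 4, and MRPL35 and MRPL50 in 3 each. The median of the 40 nearest genes in the same interaction was 0.43 for MRPL32, 0.49 for MRPS7, 0.47 for MRPL58 and 0.34 for MRPL47, and between −0.24 and 0.22 for the other 6.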

How the results depend on the processing

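No member named for a call changed the sign of its log2 fold change, in the comparison of that call, under any alternative run. This does not hold for members named by level. MRPL3 averaged 212 CPM in long-term knockdown and 214 CPM in long-term nontarget libraries. Its nontarget libraries were at 246, 209 and 187 CPM, so that leaving out the first turns the sign. The median of the members between nontarget groups, 0.01, was −0.00078 without short-term nontarget replicate 3, and medians over all genes, which lie near 0, changed sign under some alternatives. With the replicate block the members called higher were 7 short-term, 31 long-term, 2 for long-term against short-term nontarget, 29 for long-term against short-term knockdown and 15 for the interaction. With the replicate block those called lower were 1, 1, 1, 2 and 2 in the same order. The share of all genes called also rose, to 9.15%, 17.4%, 5.70%, 15.8% and 8.58% higher and 7.75%, 19.4%, 7.10%, 18.6% and 12.04% lower. The block ended no call of a member in any of the 5 comparisons. The numbers were taken to pair libraries in the comparisons of the long-term groups and of the knockdown groups. In the other comparisons at least 1 same-numbered pair correlated at 0.1 or less. For 10 of 12 libraries, however, the correlations with libraries of the other groups, averaged by number, were highest for their own number. This is a hint from the data and not from the labels. Without a filter on low counts 3 members were higher and 1 lower short-term, 2 were higher between nontarget groups, and 2 were lower in the interaction. With only the groups compared in the model, 13 members were higher in long-term than in short-term knockdown cells. Leaving out 1 library gave 1 to 5 members higher and 0 to 1 lower short-term, 16 to 21 and 0 long-term, 1 and 0 between nontarget groups, 14 to 20 and 1 to 2 between knockdown groups, and 4 to 10 and 0 to 2 in the interaction. It gave mean summed levels of 4252 to 4375 CPM in short-term nontarget, 4460 to 4672 in short-term knockdown, 4352 to 4492 in long-term nontarget and 5196 to 5255 in long-term knockdown cells. Restricted to the 29 members that overlap no other gene, these sums were 1490, 1573, 1539 and 1816 CPM, smaller by construction. RLE factors moved the median of all genes by 0.0021 short-term and −0.0023 long-term. Depth limits the members with the fewest counts: 3 had under 10 counts in some library.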
